A study of Homo sapiens with 18 samples.

Results

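Long intergenic non-coding RNA genes that carry a LINC symbol followed only by digits were followed across FaDu and SCC154 head and neck cancer cells. A gene was included when its deposited counts, summed over all 18 libraries, reached at least 50. This gave 218 of the 2215 such symbols in a table of 41120 genes; 1013 of the 2215 had at least 1 count. The last genes inside the limit were LINC00339, LINC01348 and LINC01391, with 50 counts each. The first outside were LINC01535 and LINC01833 with 49 counts and LINC01226 with 48. The members were thus selected on their summed counts, and LINC02582 was chosen by its rise in post-hypoxic FaDu, which was known when the set was drawn up.

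SCC154 is a squamous carcinoma line that carries human papillomavirus (HPV), and FaDu is one that does not, so line and HPV status cannot be told apart here. Both were used as the derived lines titled SCC154-hfm and FADU-hfm. Cells were grown as spheroids in ultra-low-attachment plates, dissociated with trypsin and sorted by colour, green (GFP) cells being called post-hypoxic and red (DsRed) cells non-hypoxic. The sorted cells were then kept in normoxic culture, so neither fraction was in low oxygen when its RNA was taken. There were 4 post-hypoxic and 5 non-hypoxic SCC154 libraries, and 5 post-hypoxic and 4 non-hypoxic FaDu libraries. No further treatment or allele is given. The question within a line was which RNAs still differed after the return to normal oxygen.

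LINC symbols are given to long non-coding RNAs that lie between protein-coding genes and have no better name. Most are made by RNA polymerase II, spliced and polyadenylated like messenger RNA, and as a class they are known for low levels and for being restricted to certain tissues or cell types. Some act in the nucleus by recruiting chromatin proteins, some act on genes beside them, some bind proteins or microRNAs in the cytoplasm, and a few hold short translated reading frames. For the majority no function is known.

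The libraries were made with a 3′ tag kit, which reads the end of a polyadenylated RNA, so the last bases of a transcript are what was measured. Of the 212 LINC genes that matched GENCODE v29 (GRCh38), 125, or 59%, held a poly(A) signal (AATAAA or ATTAAA) in the last 50 bases of the annotated transcript. Among 1949 LINC symbols below 50 counts the share was 53.2% (1036). The last 100 bases are shown for the member whose rise in FaDu chose it (LINC02582), the member called in SCC154 (LINC00467) and the 2 members most abundant in FaDu among those near or at 0 in SCC154. They are read 5′ to 3′ on the transcript strand, with the signal in capitals.
LINC02582: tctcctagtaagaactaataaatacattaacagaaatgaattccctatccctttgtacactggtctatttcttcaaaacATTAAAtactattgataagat
LINC00467: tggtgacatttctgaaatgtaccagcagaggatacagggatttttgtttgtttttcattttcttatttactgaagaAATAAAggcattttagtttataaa
LINC02999: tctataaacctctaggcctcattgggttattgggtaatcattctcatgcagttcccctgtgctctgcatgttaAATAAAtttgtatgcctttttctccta
LINC02434: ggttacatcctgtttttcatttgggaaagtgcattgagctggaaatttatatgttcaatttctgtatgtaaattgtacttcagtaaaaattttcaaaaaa
These lie at chr18:73349779-73349878 on the plus strand, chr1:211435234-211435333 on the plus strand, chr5:134429051-134429150 on the minus strand and chr4:188161040-188161139 on the plus strand, in the order shown. The signal starts 21 bases from the end in LINC02582, 24 in LINC00467 and 27 in LINC02999. The last bases of LINC02434 hold neither of these letters. All 4 ends are in the last exon, which is 795, 3015, 577 and 639 bases long in the same order.

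Library totals ran from 1654719 to 2503573 counts, and the 218 genes together held 70765 counts. They made up 0.199 to 0.238% of a post-hypoxic SCC154 library and 0.173 to 0.211% of a non-hypoxic one. In FaDu the share was 0.145 to 0.2% in post-hypoxic and 0.144 to 0.187% in non-hypoxic libraries. The ranges of the sorted fractions overlapped in each line, and the replicates numbered 3 and 4 had the lowest shares in both FaDu fractions. A library held counts for 184 to 201 of the 218 genes. Squamous and general epithelial markers together summed to 1380 to 1760 CPM (counts scaled to library size) in every library. Fibroblast, endothelial and immune lists each stayed at or under 5.8 CPM in every library, with 2, 1 and 2 of their markers at 0.

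The LINC RNAs were mostly rare. Averaged over the 4 groups, 5 genes reached 50 CPM, 37 lay between 10 and 50 CPM and 176 between 1 and 10 CPM. The median gene was at 3.93 CPM, the highest at 89.5 and the lowest at 1.26. A 3′ tag count does not grow with transcript length, so CPM values can be set beside each other between genes, although capture at each poly(A) site may differ. The 12 most abundant genes held 32.6% of all LINC counts. In genomic position, chromosomes 1, 2 and 7 carried the most members, with 25, 21 and 18, followed by chromosomes 3, 4 and 12 with 14 each. The nearest protein-coding gene lay a median of 17.3 kb away; it was within 5 kb for 59 members and over 100 kb away for 39.

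LINC02009 (chromosome 3, beside the chemerin receptor gene CCRL2) was the most abundant, and almost all of it came from SCC154. It had 213, 169, 196 and 172 CPM in post-hypoxic and 79.0, 177, 176, 160 and 180 CPM in non-hypoxic SCC154. In FaDu it had 5.99, 6.90, 9.54, 9.91 and 10.6 CPM in post-hypoxic and 10.5, 7.40, 4.49 and 7.55 CPM in non-hypoxic libraries. No SCC154 library came near a FaDu one, and 1 non-hypoxic SCC154 library was well below its other replicates. LINC01234 (chromosome 12) showed the reverse order. It averaged 1.15 ± 0.232 CPM in post-hypoxic and 0.928 ± 0.241 CPM in non-hypoxic SCC154 (SD, n = 4 and 5), from 10 counts in each fraction. In FaDu it averaged 91.2 ± 16.6 CPM in post-hypoxic and 79.3 ± 19.2 CPM in non-hypoxic cells (SD, n = 5 and 4).

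Others of the 12 were shared. LINC01503, known in squamous carcinoma as a target of the epithelial transcription factor p63, had 39.5 ± 13.8 CPM in post-hypoxic and 39.1 ± 7.25 CPM in non-hypoxic SCC154, beside 42.5 ± 8.6 and 42.5 ± 5.09 CPM in post-hypoxic and non-hypoxic FaDu. LINC00958, first described in bladder cancer, had 76.1 ± 9.45 and 58.9 ± 11.7 CPM in post-hypoxic and non-hypoxic SCC154 and 55.7 ± 11.2 and 58.6 ± 8.74 CPM in the FaDu fractions in the same order. LINC00511, reported as a partner of the chromatin modifier EZH2 in lung cancer, was the least even. Its post-hypoxic SCC154 libraries had 55.3, 132, 41.4 and 42.7 CPM and its non-hypoxic ones 94.3, 63.8, 54.1, 34.3 and 45.6 CPM. The value of 132 belongs to replicate 3, which was also the highest of its group for LINC00342 and LINC00963 and is the shallowest library of the series; whether depth plays a part was not tested. LINC02210, at 39.4 ± 8.18 and 34.2 ± 3.04 CPM in post-hypoxic and non-hypoxic SCC154, lies inside the annotated read-through gene LINC02210-CRHR1, so its counts may include that transcript.

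The remaining 6 of the 12 differed between the lines in level. LINC00630 (X chromosome) averaged 88.7 and 99.1 CPM in post-hypoxic and non-hypoxic SCC154, against 31.5 and 37.2 CPM in the same FaDu fractions. LINC00370 averaged 67.9 and 64.0 CPM in SCC154, against 16.8 and 16 CPM in FaDu, and LINC00963, described in prostate cancer, 51.7 and 50.2 CPM against 24.6 and 22.7 CPM. LINC01572 averaged 46.4 and 44.1 CPM in SCC154, against 23.7 and 26.3 CPM in FaDu. LINC00342 averaged 76.4 and 69.1 CPM in SCC154, against 5.63 and 6.08 CPM in FaDu. LINC00665 ran the other way, with 29.1 and 34.6 CPM in SCC154, against 87.0 and 83.9 CPM in FaDu. For the last 2, 65.6% and 56.3% of the 31-base words in the last 300 bases also occur elsewhere in the transcript set, so reads could be shared with copies and their levels are uncertain. The same holds, at over 50% of words, for 11 of the 212 members with a transcript.

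**Figure D1:**
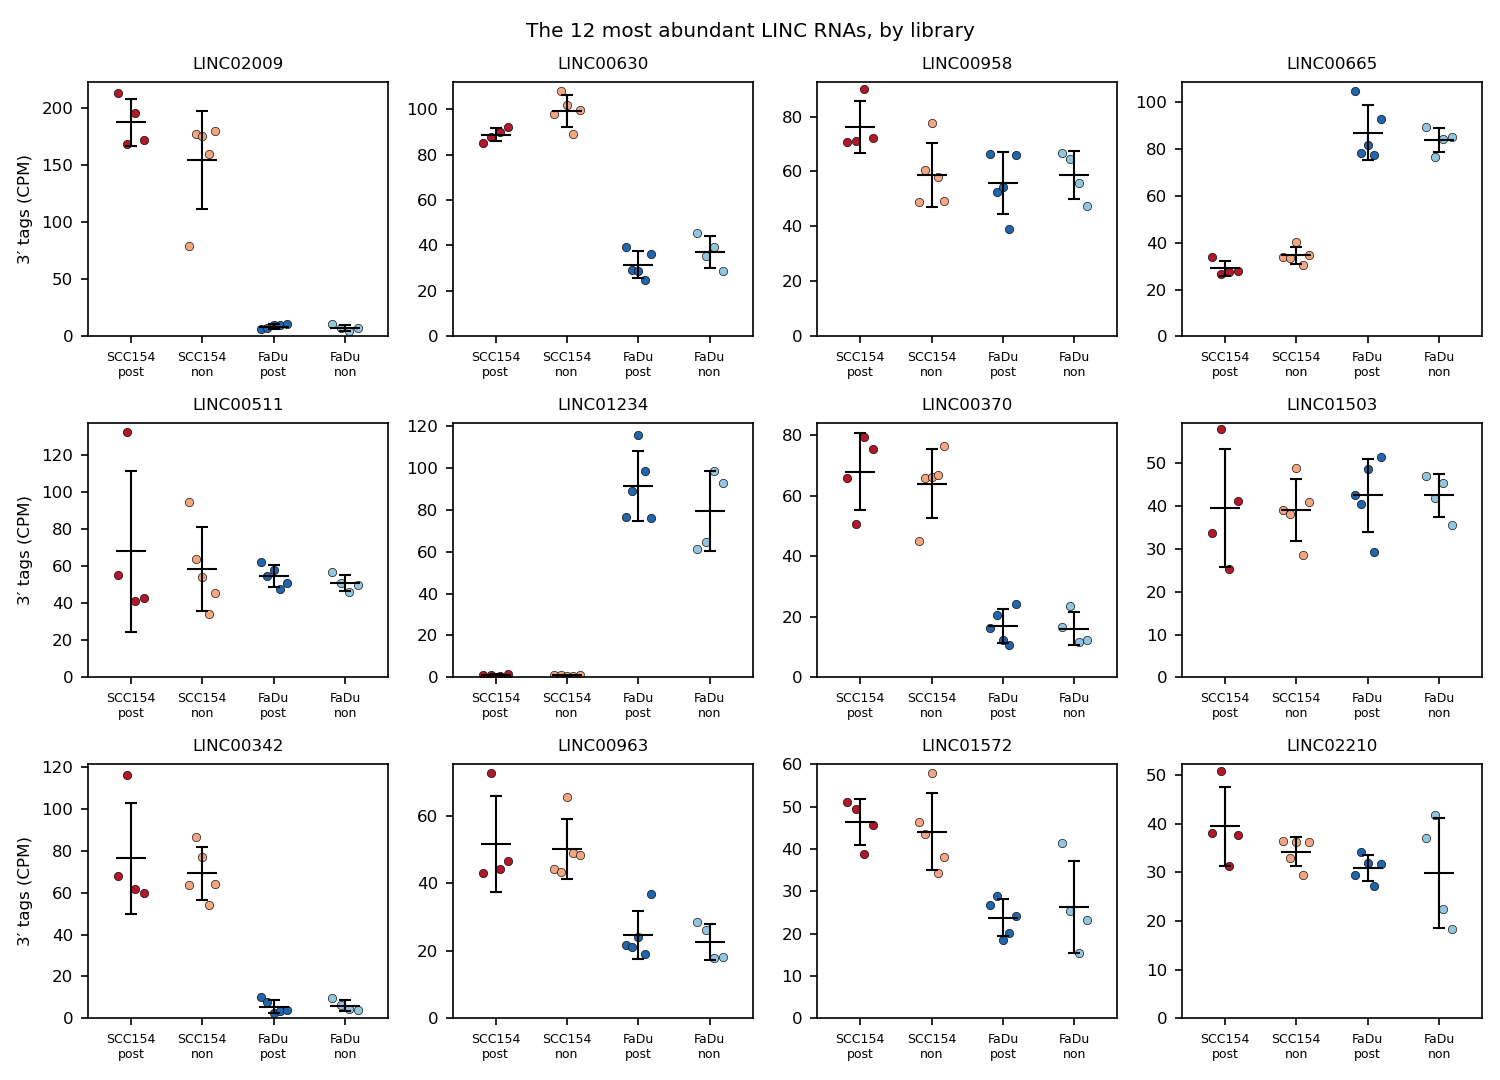
Level of the 12 most abundant LINC RNAs in CPM on a linear axis from 0, 1 panel per gene, with SCC154 post-hypoxic, SCC154 non-hypoxic, FaDu post-hypoxic and FaDu non-hypoxic libraries from left to right. Points are libraries and bars are mean ± SD (n = 4, 5, 5 and 4); LINC02009 and LINC01234 separate the lines in opposite directions, while LINC01503 lies at means of 39.1 to 42.5 CPM in all groups and 1 library lifts LINC00511 to 132 CPM.

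LINC02582 (chr18:73324941-73349878, plus strand, GRCh38) lies 456.8 kb from its nearest protein-coding gene, NETO1. In breast cancer cells it has been described as a target of the microRNA miR-200c that favours resistance to radiation. In post-hypoxic FaDu it had 33.2, 30.8, 26.3, 30.1 and 53.7 CPM, against 18.1, 18.7, 9.98 and 9.17 CPM in non-hypoxic FaDu. Every post-hypoxic library was above every non-hypoxic one, and replicate 5, the highest, has no non-hypoxic partner. The means were 34.8 ± 10.8 and 14 ± 5.11 CPM (SD, n = 5 and 4), a log2 fold change of 1.30 (SE 0.25) or 2.46-fold. Since this difference chose the gene it is given with no test. Without replicate 5 the log2 fold change was 1.09 (SE 0.24). In SCC154 the gene was low, with 2.05, 1.19, 2.05 and 2.27 CPM in post-hypoxic and 1.48, 6.28, 5.18, 3.04 and 2.49 CPM in non-hypoxic libraries. These groups overlapped (log2 fold change -0.88, SE 0.49, edgeR adjusted p = 0.393), on 17 and 38 counts. LINC02582 was 3.86-fold lower in SCC154 than in FaDu in non-hypoxic cells and 17.5-fold lower in post-hypoxic cells. Both are given with no test, since they use the FaDu libraries whose difference chose the gene.

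Of the 218 members, 146 passed the filter on low counts that was set for all genes, which left 12291 to test. The other 72 are listed by their counts only; the most abundant of them had 123 counts, and the lowest tested member had 75. The filter keeps a gene that is expressed in a single group, so a member that passed through 1 line alone had to differ between the lines.

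In the reported fit, which has no replicate block, no LINC RNA was called between post-hypoxic and non-hypoxic FaDu. edgeR's quasi-likelihood test called 0 of 146 members at an adjusted p under 0.05, as it called 0% of all genes. At an unadjusted p under 0.05 it gave 4 members, among them LINC02582, where the share of all genes was 2.42%. LINC02582 was chosen for this difference, so nothing is read from that count. DESeq2 called 1 member, LINC02582, and so did the fit with the replicate number as a block. The block fit, which leaves out post-hypoxic replicate 5 for want of a partner, gave that gene a log2 fold change of 1.12 (SE 0.19). Nothing is read from these calls, since LINC02582 was chosen for this difference. The median log2 fold change was -0.01 over the tested members and 0 over all genes, with interquartile ranges of -0.21 to 0.14 for the members and -0.11 to 0.11 for all genes. Higher in every post-hypoxic library were 2 members, LINC02582, which was chosen for this difference, and LINC02315, beside 0.561% of all genes. Lower in every one were 0 members, beside 0.504%. LINC02315, for which no SCC154 library had a count, had 4.90, 9.20, 7.72, 7.02 and 7.92 CPM in post-hypoxic FaDu, against 2.85, 4.36, 3.99 and 2.16 CPM in non-hypoxic FaDu. Its log2 fold change of 1.12 (SE 0.31) did not pass (edgeR adjusted p = 1). LINC03072 had 10.4, 8.74, 9.99, 7.43 and 11.4 CPM in post-hypoxic FaDu, against 4.28, 8.27, 6.49 and 4.31 CPM in non-hypoxic FaDu, and these groups overlapped. LINC01524 and LINC02945 had no count in post-hypoxic and 3 counts each in non-hypoxic FaDu, too few for a fold.

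In SCC154, 1 LINC RNA rose in post-hypoxic cells. LINC00467 (chr1:211382803-211435333, plus strand, GRCh38) has been described as repressed by the oncoprotein N-Myc in neuroblastoma and, in colorectal cancer, as the source of a small peptide that binds ATP synthase. It had 29.9, 34.0, 35.7 and 31.8 CPM in post-hypoxic SCC154, against 8.88, 18.8, 20.1, 21.3 and 19.5 CPM in non-hypoxic SCC154. The groups did not overlap, and replicate 1 of the non-hypoxic group was the lowest. The means were 32.8 ± 2.53 and 17.7 ± 5.02 CPM (SD, n = 4 and 5), a 1.84-fold difference (log2 fold change 0.88, SE 0.19, edgeR adjusted p = 0.0321). It was the only member called of the 146, or 0.685%, beside 0.757% of all genes (0.334% higher and 0.423% lower), so that the members' share is near that of all genes. The call rests on few libraries: the adjusted p ran from 0.00289 to 0.124 over 24 other settings, and 6 of these ended it. They were the fit on SCC154 libraries alone (0.0902), and leaving out non-hypoxic replicate 2 (0.0624), 3 (0.0589) or 5 (0.0642) or post-hypoxic replicate 2 (0.0729) or 4 (0.124). TRAF5, a signalling adaptor of the tumour necrosis factor receptors whose gene lies 7.86 kb away on the same strand, had a log2 fold change of 0.39 in post-hypoxic SCC154 (edgeR adjusted p = 0.557).

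In FaDu, LINC00467 averaged 25.8 ± 4.45 CPM in post-hypoxic and 30 ± 4.48 CPM in non-hypoxic cells (SD, n = 5 and 4; log2 fold change -0.22, edgeR adjusted p = 1). The change in SCC154 minus that in FaDu was 1.1 on the log2 scale (SE 0.27) and was not called (edgeR adjusted p = 0.205). It was called in 3 other fits. The edgeR adjusted p was 0.0298 with the replicate number as a block and 0.0358 without the filter on low counts, and the DESeq2 value was 0.0487. The block fit left out libraries without a partner, among them non-hypoxic SCC154 replicate 1, the lowest for this gene. Over all members, edgeR called 0 of 146 for this difference between the lines, beside 0.0163% of all genes. At an unadjusted p under 0.05 there were 6 members and 9.78% of all genes. LINC02582, chosen by its FaDu difference, was not set apart in this count. DESeq2 called 1 member, LINC00467, and the share of all genes in that fit is not given here.

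**Figure D2:**
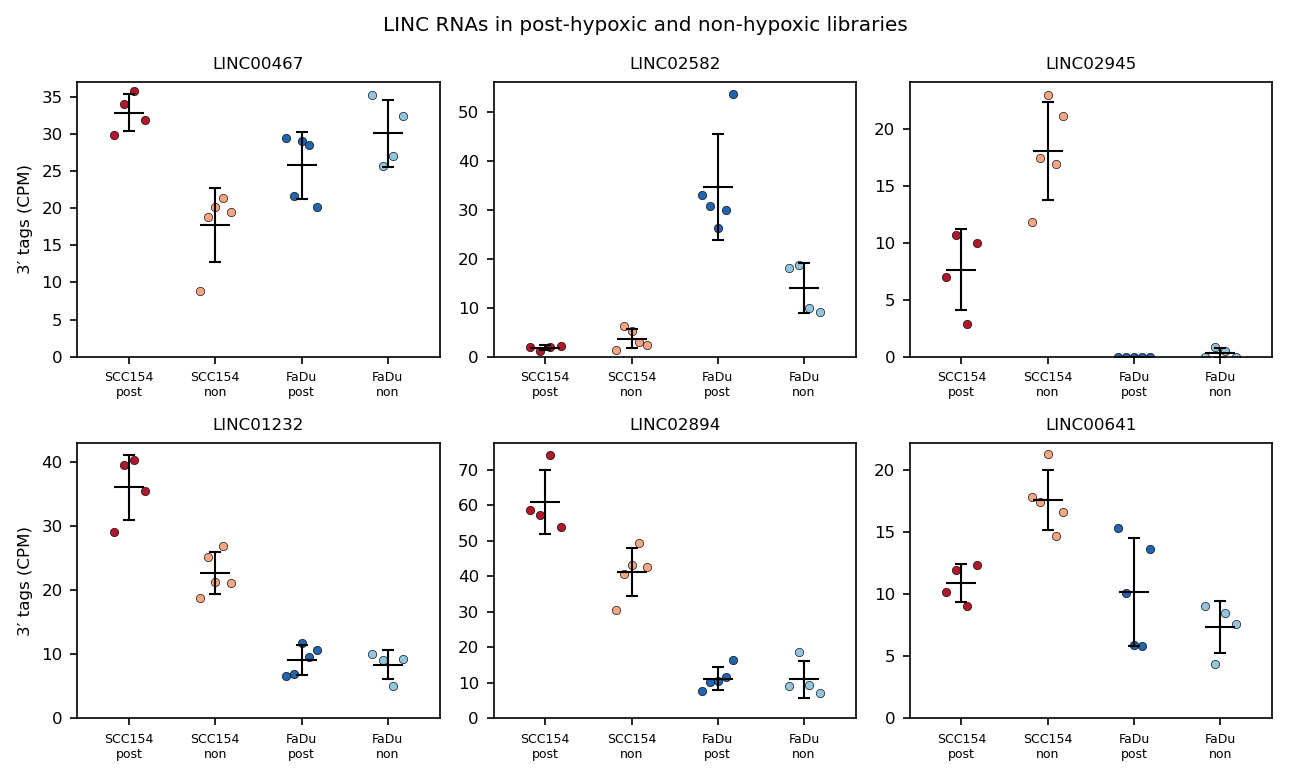
Level in CPM (linear axes from 0) of LINC00467, LINC02582 and 4 LINC RNAs of SCC154 that were not called, with SCC154 post-hypoxic, SCC154 non-hypoxic, FaDu post-hypoxic and FaDu non-hypoxic libraries from left to right; points are libraries and bars mean ± SD (n = 4, 5, 5 and 4). The 4 post-hypoxic SCC154 libraries of LINC00467 sit at 29.9 to 35.7 CPM, above the non-hypoxic ones, and LINC02582 is high in FaDu.

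The 5 other members with the lowest unadjusted p in SCC154 had groups that did not overlap, but none passed the adjustment in the fit reported here. LINC02945 had 6.96, 10.7, 2.87 and 9.98 CPM in post-hypoxic SCC154, against 11.8, 17.4, 23.0, 16.9 and 21.1 CPM in non-hypoxic SCC154 (log2 fold change -1.27, SE 0.32, edgeR adjusted p = 0.0621). LINC01232 had 36.0 ± 5.07 CPM, against 22.6 ± 3.30 CPM (SD, n = 4 post-hypoxic and 5 non-hypoxic; edgeR adjusted p = 0.0717). It overlaps TM9SF2 on the other strand, and without a stated strand setting reads of these genes could not be told apart. LINC02482 had 4.51, 4.18, 3.28 and 4.08 CPM in post-hypoxic libraries, against 0.494, 0, 0, 0.434 and 2.07 CPM in non-hypoxic ones, on 35 and 7 counts (edgeR adjusted p = 0.084). LINC02894, beside the epithelial splicing regulator gene ESRP1, had 61.0 ± 9 CPM, against 41.3 ± 6.83 CPM (edgeR adjusted p = 0.15; SD, n = 4 post-hypoxic and 5 non-hypoxic). LINC00641 had 10.9 ± 1.51 CPM, against 17.6 ± 2.38 CPM (edgeR adjusted p = 0.174; SD, n = 4 post-hypoxic and 5 non-hypoxic). In all, 5 tested members were higher in every post-hypoxic SCC154 library, beside 2.56% of all genes, and 4 were lower in every one, beside 2.99%. The median log2 fold change was 0.03 over the members and 0 over all genes, and at an unadjusted p under 0.05 there were 13 members, or 8.9%, beside 15.7% of all genes.

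**Figure D3:**
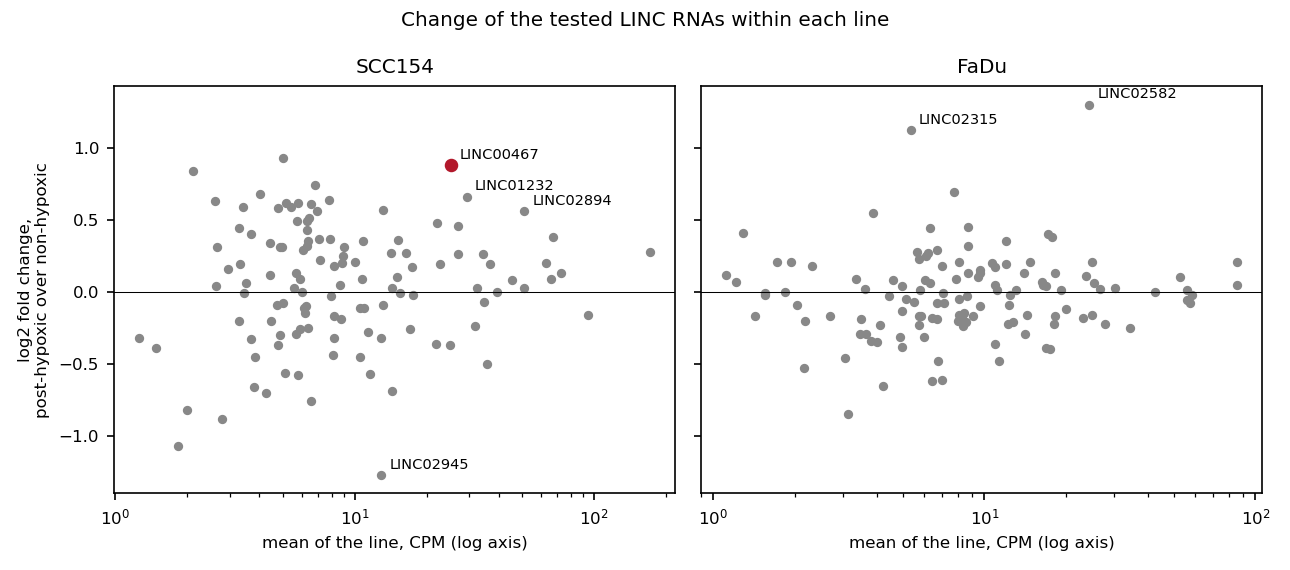
Log2 fold change of post-hypoxic over non-hypoxic cells (vertical) against the mean level of the 2 fractions in CPM on a log axis, SCC154 left and FaDu right. Each point is a tested LINC RNA with at least 1 CPM in both fractions of that line (119 in SCC154 and 123 in FaDu); the called gene, LINC00467, is red, and the medians over all tested members were 0.03 and -0.01.

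The lines differed far more than the sorted fractions. In non-hypoxic cells edgeR called 108 of 146 members, 58 higher and 50 lower in SCC154 than in FaDu, beside 68.9% of all genes (34.5% higher and 34.5% lower). In post-hypoxic cells it called 100, 56 higher and 44 lower, beside 69.7% (34.8% and 34.9%). These shares are near those of all genes. The 146 include 19 members read in FaDu and 5 read in SCC154 with at most 2 counts in the other line, which had to differ. They also include LINC02582, chosen by its FaDu values. The fold changes were wider, with interquartile ranges in non-hypoxic cells of -1.61 to 1.74 for the members and -0.68 to 0.78 for all genes. However, the filter favours genes of a single line, and the members are mostly rare. Between the FaDu fractions, where no member was called, the members' range was also wider (-0.21 to 0.14, against -0.11 to 0.11 for all genes). Whether low counts widen the range was not tested. In both fractions together 52 members were called higher and 42 lower, beside 30.1% and 30.1% of all genes. In 40 and 36 of these no SCC154 library of either fraction overlapped a FaDu library of either fraction. The share of all genes without such overlap was not counted, so nothing about the members is read from these 2 counts. Without regard to the test, 44 tested members were higher and 45 lower in every non-hypoxic SCC154 library, beside 28.6% and 27.8% of all genes. In post-hypoxic cells these were 51 and 42 members, beside 28.7% and 28.6%. By counts, 80 of the 218 members had at least 50 in each line, 61 in SCC154 alone and 43 in FaDu alone, and 34 reached 50 only by adding both.

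Among members present in both lines, LINC02009 was 20.4-fold higher in non-hypoxic SCC154 than in non-hypoxic FaDu (log2 fold change 4.35, SE 0.25, edgeR adjusted p = 4.43e-13), and 21.5-fold higher in post-hypoxic cells. LINC01234 was 78.8-fold lower in non-hypoxic SCC154 (log2 fold change -6.30, SE 0.26), on 10 SCC154 counts; it passed the low-count filter through FaDu and had to differ, so it is given with no test. Of the shared genes, LINC01503 differed by -0.13 on the log2 scale in non-hypoxic cells (edgeR adjusted p = 0.589). LINC00958 differed by 0 in non-hypoxic cells (edgeR adjusted p = 0.991) and by 0.45 in post-hypoxic cells, where it passed (edgeR adjusted p = 0.0139). LINC02057 had 33.9 ± 10.4 and 35.2 ± 7.17 CPM in post-hypoxic and non-hypoxic SCC154, against 0.931 ± 1.07 and 0.378 ± 0.51 CPM in the same FaDu fractions (SD, n = 4, 5, 5 and 4). It rested on 10 and 3 FaDu counts. LINC02178, LINC01524, LINC02945 and LINC01273 had the same direction, each with 9 or fewer FaDu counts. Like LINC02057, they passed the low-count filter through SCC154 and had to differ, so all are given with no test.

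**Figure D4:**
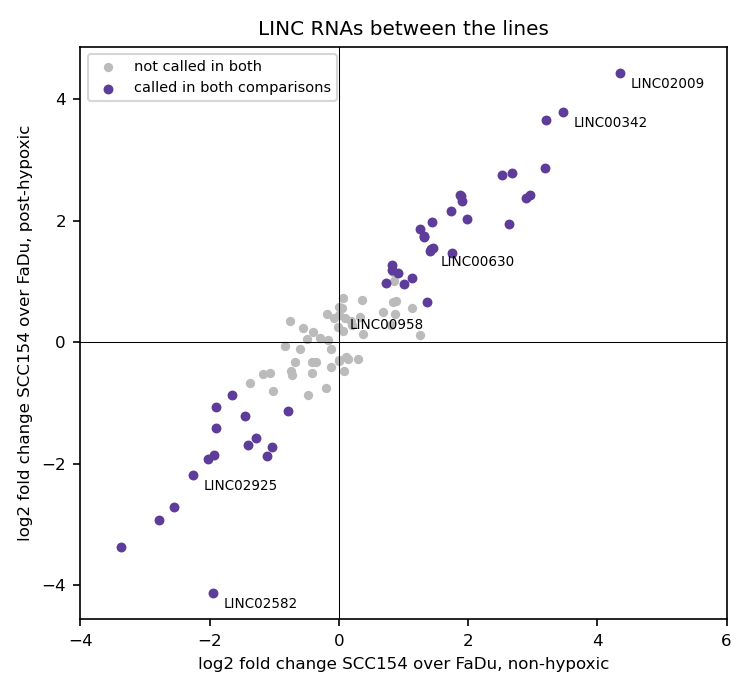
Log2 fold change of SCC154 over FaDu in non-hypoxic cells (horizontal) and in post-hypoxic cells (vertical) for the 96 tested LINC RNAs with at least 1 CPM in every group. Purple points (45 genes, 29 higher and 16 lower) were called in both comparisons and grey points were not; the points follow the diagonal (Pearson r = 0.95 across 96 genes, which are not independent replicates), with LINC02582 below it.

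A further set was read in 1 line almost alone. With at most 2 counts over the 9 libraries of the other line, 20 members were present in FaDu and 9 in SCC154; 14 and 5 of them had no count at all in the other line. A group with no count was given a floor of 3 counts over its 9 libraries, which covers counting error only. LINC02434 had 0 counts in SCC154, against 1067 counts and 43.3 to 67.8 CPM in FaDu, and was thus at least 359-fold lower in SCC154. LINC02999 had 1 count in SCC154, against 1071 in FaDu, a ratio of FaDu to SCC154 of 1080 (exact 95% counting interval 194 to 42700). These 2 RNAs were among the most abundant LINC RNAs of FaDu. LINC00662 (1 count in SCC154, against 337 in FaDu) and LINC02987 (0, against 252) overlap on chromosome 19 and are not independent. The other FaDu members without a SCC154 count were LINC01905, LINC01748, LINC01980, LINC03122, LINC01807, LINC03020, LINC00540, LINC00960, LINC02693, LINC02315, LINC02466 and LINC02994, at least 90.8-fold lower in SCC154 for the first and at least 18.2-fold for the last. LINC01012, LINC01876, LINC02577 and LINC02820 had 1 count each in SCC154. LINC00960, LINC01905 and LINC03122 are uncertain, because exons of ZNF717, LINC01539 and C5orf64 lie in their last 500 bases; ZNF717 itself had no count in SCC154. LINC02693 is typed as protein-coding in GENCODE v29.

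On the SCC154 side, LINC01322 was the most abundant, with 318 counts in SCC154, against 2 in FaDu (ratio 158, exact 95% counting interval 43.2 to 1310). Its SCC154 libraries had 20.1, 12.5, 20.1 and 18.6 CPM in post-hypoxic and 3.95, 19.8, 18.4, 11.7 and 20.7 CPM in non-hypoxic cells. Non-hypoxic replicate 1 was again low. LINC02742 had 211 counts in SCC154, against 0 in FaDu, at least 69.7-fold higher. LINC01378, LINC00391, LINC02065 and LINC02783 also had no FaDu count and were at least 32.7-, 29.1-, 24.8- and 18.8-fold higher in SCC154. LINC02783 is uncertain, since an exon of another annotated gene lies in its last 500 bases. LINC00853, LINC02362 and LINC00299 had 71, 55 and 49 counts in SCC154, against 1, 1 and 2 in FaDu.

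The nearest protein-coding genes of these 29 members included 19 that were tested. In non-hypoxic cells 12 of the 19 were called in the direction of their LINC RNA, 5 in the opposite direction and 2 were not called. Of all genes, 34.5% were called in each direction. Among the 12, EOMES, ALX1 and ZNF717 had no count in SCC154, and SOX21 and PDZK1IP1 none in FaDu. They passed the low-count filter through the other line and had to differ. ID2, in the same direction, and GPAT3, in the opposite one, were under 1 CPM in FaDu. Reads of ZNF717 and LINC00960 may also be shared, so nothing is read from the tally. The nearest genes were examined after the members were seen to be restricted to a line, and the distances run from overlap to 1411.38 kb. Next to LINC00391, 6.76 kb away, SOX21, a transcription factor of the SOX family, had 13.4 and 13.7 CPM in post-hypoxic and non-hypoxic SCC154, against no count in FaDu. PADI1, a peptidylarginine deiminase of the epidermis 7.51 kb from LINC02783, had 127 and 102 CPM in SCC154, against 3.27 and 1.82 CPM in FaDu. ID2, an inhibitor of basic helix-loop-helix factors 295.22 kb from LINC00299, had 137 and 144 CPM in SCC154, against 0.558 and 0.135 CPM in FaDu. In the other direction, NFIA, a DNA-binding regulator of cell differentiation 224.77 kb from LINC01748, had 10.5 and 15.3 CPM in SCC154, against 389 and 374 CPM in FaDu. EOMES, a T-box factor 74.85 kb from LINC01980, had no count in SCC154, against 9.38 and 9.62 CPM in FaDu. The 5 with the opposite direction were GPAT3, TCF4, C4orf33, ZSWIM6 and SREK1, with log2 fold changes of 5.72, 1.85, 1.78, 0.88 and -0.73 beside LINC02994, LINC01905, LINC02466, LINC03122 and LINC02065. GPAT3, 190.56 kb from LINC02994, had 29.4 and 47.7 CPM in SCC154, against 0.265 and 0.792 CPM in FaDu, although LINC02994 itself had no count in SCC154. NR4A2, beside LINC01876, differed by -0.05 on the log2 scale in non-hypoxic cells (edgeR adjusted p = 0.912).

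Over all pairs in which both genes had at least 1 CPM in every group, the relation was weak. Across 64 pairs the log2 fold changes of SCC154 over FaDu in non-hypoxic cells had a Pearson r of 0.27, and across the 24 pairs within 5 kb an r of 0.40. Where spans and last 500 bases lay apart, the 15 such close pairs had an r of 0.35 and a Spearman rho of 0.08. With all 105 tested pairs, genes near 0 in a line included, r was 0.45, and 0.81 across the 31 within 5 kb. These are descriptions across genes that share libraries, and genes are not independent replicates. LINC02009 and CCRL2, 3.53 kb apart on opposite strands, were both higher in non-hypoxic SCC154, by 4.35 and 3.57 on the log2 scale. CCRL2 had 7.88 CPM in non-hypoxic SCC154 and only 0.59 CPM in non-hypoxic FaDu, so its fold is uncertain. LINC00592 with KRT80, a keratin gene, and LINC00598 with FOXO1 were also higher in both, but their spans overlap and the reads may not be separable. All these pairs had a gene under 1 CPM in a group and lie outside the 64, unlike the pairs that follow. LINC00324, 0.78 kb from CTC1, a telomere maintenance gene, had a log2 fold change of -2.78 where CTC1 differed by -0.20 (edgeR adjusted p = 0.613). LINC00641 and HNRNPC, an RNA-binding protein gene, had opposite signs in non-hypoxic cells (1.25 and -0.62). In post-hypoxic cells LINC00641 differed by only 0.11 (edgeR adjusted p = 0.724), and HNRNPC by -0.9.

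**Figure D5:**
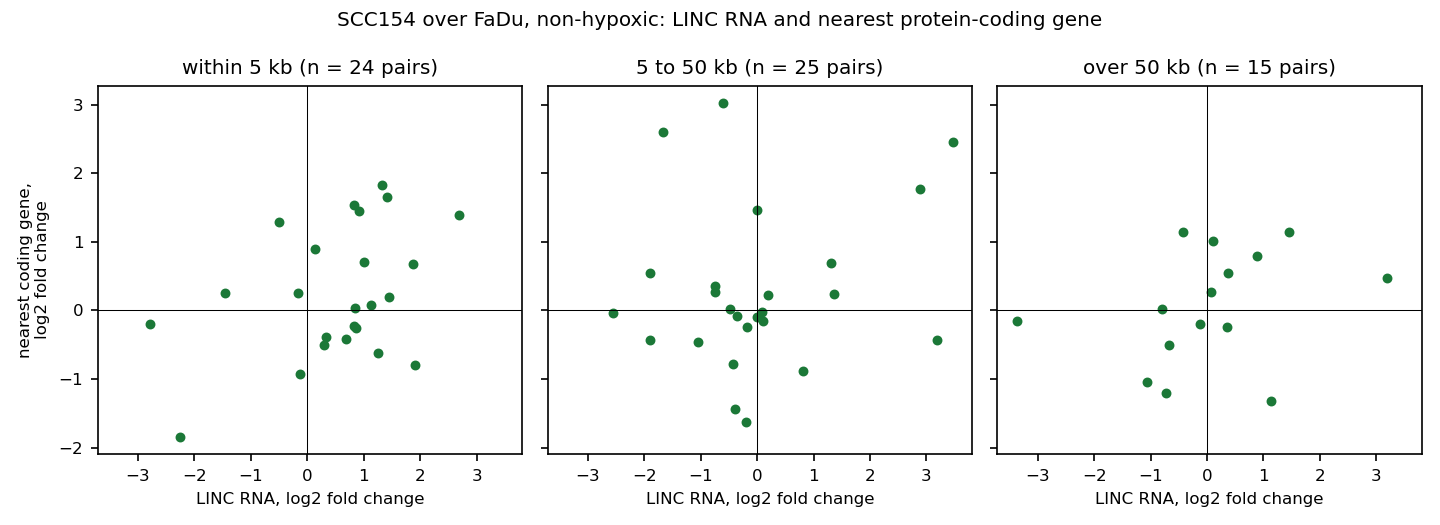
Log2 fold change of SCC154 over FaDu in non-hypoxic cells for a LINC RNA (horizontal) and its nearest protein-coding gene (vertical), for pairs within 5 kb (24), 5 to 50 kb apart (25) and over 50 kb apart (15). Each point is a pair in which both genes had at least 1 CPM in every group; the cloud is loose in all 3 panels (Pearson r = 0.40, 0.18 and 0.30 across pairs).

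Promoter windows from RefSeq (250 bases before to 50 after the start) were found for 157 members, in 175 windows, but not for LINC02582 or LINC00467. The core letters of hypoxia response elements, ACGTG or GCGTG on either strand, were in 47.4% of the member windows and in 48.4% of 35116 windows of all genes. The AP-1 letters TGANTCA were in 13.1% and 7.7%, and the TEAD letters GGAATG in 17.1% and 14%, in the same order. A match describes letters in a window and is no evidence of binding.

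Named long non-coding RNAs outside the LINC symbols were also counted. Of a list of 67, 64 were in the table and 50 were tested. In FaDu 0 were called between post-hypoxic and non-hypoxic cells. In SCC154 1 was, CASC19, at 42.6 CPM in post-hypoxic and 26.9 CPM in non-hypoxic cells (log2 fold change 0.66, SE 0.15, edgeR adjusted p = 0.0348). Between non-hypoxic cells 21 were higher and 18 lower in SCC154 than in FaDu, and between post-hypoxic cells 24 and 17, where 68.9% and 69.7% of all genes were called in either direction. SNHG14, a host of small nucleolar RNAs, had 297 and 288 CPM in post-hypoxic and non-hypoxic SCC154, against 0.401 and 0.363 CPM in FaDu. Its log2 fold changes were 9.42 in non-hypoxic and 9.44 in post-hypoxic cells. SNHG14 passed the low-count filter through SCC154 and had to differ, so it is given with no test. UCA1, known from urothelial cancer, was higher in SCC154 by 2.62 in non-hypoxic and 2.77 in post-hypoxic cells. FGD5-AS1 was higher by 2.09 in non-hypoxic SCC154. FIRRE, an X-linked RNA that organises nuclear domains, had 0.503 CPM in post-hypoxic SCC154, against 49.6 CPM in post-hypoxic FaDu (log2 fold change -6.58). It passed the filter through FaDu and is likewise given with no test.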

How the data were processed

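RNA was measured in 18 libraries of 2 cell lines and 4 groups. The deposited file is a table of raw counts, with 1 value per gene symbol and library. Per the submitters' processing notes, featureCounts 1.5.1, HISAT2 2.2.1, UMI-tools 1.1.5, DESeq2, Trimmomatic 0.39 and FastQC 0.11.9 were used with build hg38. How each was run, with which gene models, strand mode and rule for multiply mapped reads, is not given in the sources used here. Whether counts are of molecules or reads is therefore unknown, and intervals and floors cover counting error only.

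Groups and replicate numbers came from the titles. The labels do not say that replicates were separate cultures, so p-values measure only how these samples vary, which may be technical variation. No pair of replicates was alike within sampling noise (chi-square per degree of freedom at least 1.84), and all 18 libraries were counted singly. Tests used edgeR 4.0.16 (R 4.3.3) on the deposited counts: the filterByExpr filter, TMM scaling, a quasi-likelihood fit of the 4 groups, and Benjamini-Hochberg adjustment over all 12291 tested genes at 0.05. Standard errors (SE) of log2 fold changes were taken from the F statistic. CPM values use TMM-scaled library sizes. The procedure was tested on simulated data. DESeq2 1.42.0, other scalings, filters, a replicate block and the omission of each library were the alternatives.

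Deviations of same-numbered FaDu libraries from their group means had r of 0.55, 0.21, 0.28 and 0.53 over 9667 genes. For same-numbered SCC154 libraries r was 0.05, 0.39, 0.48 and 0.18. These ranges overlap and libraries of different number were not compared, so whether the numbers mark pairs is not known in either line. The reported tests used no replicate block. The alternative fit with the block holds only the 16 libraries with a same-numbered partner. It leaves out post-hypoxic FaDu replicate 5 and non-hypoxic SCC154 replicate 1.

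The members and gene lists were chosen with earlier results of these data known. Named by rule were the 12 most abundant members, members called within a line, LINC02582, the 10 largest called differences per direction between the lines without overlap, members with at most 2 counts in 1 line, and the 5 lowest p-values in each line among those not called. The neighbour pairs and the limit of 1 CPM set on them were chosen after values were seen. Positions, transcript ends and nearest genes are from GENCODE v29 (GRCh38; 212 members) or RefSeq (6 members), and promoter windows from RefSeq GRCh38.p14; the authors' gene models may differ.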

Additional observations from a re-analysis of the deposited data

Results flagged for a closer look

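In 115 groups of 4 or 5 libraries of the named genes, 13 had a highest or lowest library far from the others by Dixon's criterion; chance gives about 1 in 20 groups. Post-hypoxic SCC154 replicate 3 was highest for LINC00342 (116 CPM, others 59.9 to 68), LINC00511 (132 CPM, others 41.4 to 55.3) and LINC00963 (72.8 CPM, others 43 to 46.7). Post-hypoxic SCC154 replicate 4 was highest for LINC00958 (90.2 CPM, others 70.9 to 72.1).

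Non-hypoxic SCC154 replicate 1 was lowest for LINC00467 (8.88 CPM, others 18.8 to 21.3) and LINC02009 (79.0 CPM, others 160 to 180) and highest for LINC01524 (10.9 CPM, others 7.05 to 8.05). Non-hypoxic SCC154 replicate 3 was highest for LINC00963 (65.6 CPM, others 43.5 to 49) and LINC02742 (19 CPM, others 8.67 to 11.6), and replicate 5 lowest for LINC01378 (1.66 CPM, others 4.34 to 5.43).

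In FaDu, post-hypoxic replicate 5 was highest for LINC02582 (53.7 CPM, others 26.3 to 33.2) and LINC00963 (37.0 CPM, others 19 to 24.1). Non-hypoxic FaDu replicate 3 was lowest for LINC01232 (4.99 CPM, others 9.15 to 9.98).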

How the results depend on the processing

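The counts of called members within a line were small and moved with the settings. The share of all genes called is not given here for the other settings, so these counts are not read as a result about the members. Without the filter on low counts 1 member was called in FaDu, 4 in SCC154 and 2 for the difference between the lines. DESeq2 gave 1, 3 and 1, and the fit on the compared libraries alone gave 0 in SCC154. With the replicate number as a block, on the 16 libraries with a partner, the counts were 1 in FaDu, 7 in SCC154 and 2 for the difference. Whether the numbers mark pairs is not known. The FaDu call in each of these was LINC02582, which was also 1 of the 2 calls for the difference without the filter and with the block; since the rule chose that gene for this difference, these are not gains. Among the 4 SCC154 calls without the filter, LINC01641 rested on 1 library. It had 38 counts in post-hypoxic SCC154 replicate 2 and none in any other SCC154 library. Leaving out each library in turn gave 0 to 0 members in FaDu, 0 to 2 in SCC154 and 0 to 0 for the difference. Between the lines it gave 102 to 113 members in non-hypoxic and 96 to 106 in post-hypoxic cells, and the other settings stayed within 1.5 times the reported counts. For the named genes 0 alternatives reversed a direction; 6 ended a call, all for LINC00467 in SCC154, and 10 made one in SCC154, 4 for LINC02945, 3 for LINC02482, 2 for LINC01232 and 1 for LINC02894. LINC02945 passed without post-hypoxic SCC154 replicate 3 (adjusted p = 0.0433) and with DESeq2 (0.0318), and LINC02482 without non-hypoxic FaDu replicate 4 (0.043). The cause was not tested. Depth limits the rare genes: 72 members had too few counts to be tested.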
